A study of Mus musculus with 25 samples.

Results

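Voltage-gated sodium channels carry the fast inward current that starts the action potential in most nerve and muscle cells, and 8 of their genes were followed in mouse sinoatrial node (SAN) and right atrium (RA). Of these, 5 code for a pore-forming alpha subunit or a protein built like one (Scn1a, Scn3a, Scn4a, Scn7a and Scn10a), and 3 code for a beta subunit (Scn2b, Scn3b and Scn4b). They were chosen by gene symbol, and all 8 were found among the 20870 genes listed. A pore is a single large protein built of repeated homologous domains, and the beta subunits are small membrane proteins with an immunoglobulin fold that change the gating of the pore and its delivery to the cell surface. The node fires with little fast sodium current in its centre, where the upstroke rests on calcium channels, while working atrial muscle depends on sodium channels for fast conduction.

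The study measured 25 libraries of total RNA from laser-captured heart tissue of mice on a mixed strain background. A set of 18 came from Hcn4-GFP mice, with 3 SAN and 3 RA libraries at each of 3 stages: E14.5 (an embryonic day), P4 and P14 (days after birth). The other 7 came from SAN at E12.5, all of them Hcn4-GFP with Isl1 fl/fl alleles and all exposed to tamoxifen at E10.5. Of these, 3 also carried CAG-Cre/Esr1, a Cre recombinase activated by tamoxifen and driven by a broadly active promoter, so it is not limited to the node (CrePos), and 4 did not (CreNeg). Tissue was outlined by eye, and the labels do not say how many animals stand behind a library, so p-values measure the spread between libraries.

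Levels are in CPM, here the authors' scaled signal divided by one constant. Library totals average 1000000 CPM but are not equal, so a level is not an exact share of its own library. In the 18 libraries, depth was 5101711 to 17997497 reads and 1 read was worth 0.0616 to 0.215 CPM. In the 7 libraries, depth was 45298052 to 88020474 reads and 1 read was worth at most 0.0177 CPM. A count of 0 allows up to 3 reads. The node markers Hcn4, Tbx3, Shox2 and Isl1 were higher in SAN than in RA at each stage, with summed levels of 1697 to 5063 CPM in SAN and 20.8 to 50.7 CPM in RA. SAN E14.5 replicate 1 held 829 CPM of Myl2, a ventricular myosin light chain, against at most 24.5 CPM in the other 17 libraries of the set. In bulk tissue, fewer cells of a type and less RNA per cell cannot be told apart.

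The promoters of Scn10a, Scn7a and Scn4b are shown because these genes carried the differences between SAN and RA at P14. Each runs from 250 bases before the annotated start to 50 after it (RefSeq, GRCm38.p6, 5′ to 3′ on the gene's own strand). Capitals mark matches, on either strand, to the core letters AGGTGT of T-box factors, AGATAA of GATA factors or CAAGTG of NKX2-5. Scn10a lies at chr9:119718983-119719282 on the minus strand, Scn7a at chr2:66784861-66785160 on the minus strand and Scn4b at chr9:45138374-45138673 on the plus strand.
Scn10a: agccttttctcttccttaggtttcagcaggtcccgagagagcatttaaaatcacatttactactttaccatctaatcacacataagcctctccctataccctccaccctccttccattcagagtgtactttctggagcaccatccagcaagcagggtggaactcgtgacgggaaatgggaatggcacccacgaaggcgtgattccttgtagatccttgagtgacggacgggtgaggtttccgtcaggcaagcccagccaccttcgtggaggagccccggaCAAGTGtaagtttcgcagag
Scn7a: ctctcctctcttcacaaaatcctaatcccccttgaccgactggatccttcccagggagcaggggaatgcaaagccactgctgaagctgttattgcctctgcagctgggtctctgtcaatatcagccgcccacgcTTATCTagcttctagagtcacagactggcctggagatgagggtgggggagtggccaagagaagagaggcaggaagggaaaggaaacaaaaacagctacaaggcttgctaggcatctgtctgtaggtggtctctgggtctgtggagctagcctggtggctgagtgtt
Scn4b: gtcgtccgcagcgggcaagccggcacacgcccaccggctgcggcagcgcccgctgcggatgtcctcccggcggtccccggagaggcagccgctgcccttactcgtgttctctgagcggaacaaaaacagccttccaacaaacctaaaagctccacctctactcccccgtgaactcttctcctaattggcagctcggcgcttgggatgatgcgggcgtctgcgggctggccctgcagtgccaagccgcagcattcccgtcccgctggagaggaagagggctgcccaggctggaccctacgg
The Scn10a window held 1 NKX2-5 core, a motif present in 13.6% of the 32851 promoters of the same length. The Scn7a window held 1 GATA core, present in 11.2% of promoters. The Scn4b window held none of the 3 motifs, and the T-box core, present in 13.7% of promoters, was in none of the windows shown. Scn4b had 66.3% G and C with 26 CpG pairs, while Scn10a had 51.7% with 11 and Scn7a 54% with 3. Scn2b and Scn4b are next to each other among the protein-coding genes of chromosome 9, and the Scn2b window had 38.3% G and C. A match describes letters only and was not tested as a binding site.

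Scaled by exon length, Scn7a was the most abundant of the 8 genes in each of the 6 SAN and RA groups, and it made up 94.6% of their summed CPM per kilobase in SAN at P14 against 84.3% in RA at P14. Behind Scn7a the order depended on the tissue. In SAN at P14, Scn3b had 1.67 ± 0.765 CPM per kilobase, Scn4b 1.41 ± 0.497 and Scn4a 1.01 ± 0.147 (SD, n = 3), levels that overlapped between libraries. In RA at P14, Scn4a came next with 2.32 ± 1.95 CPM per kilobase and Scn10a with 1.76 ± 1.31 (SD, n = 3), which overlapped too. In RA at P4, Scn10a reached 9.96 ± 2.25 CPM per kilobase and overlapped with Scn7a at 16.0 ± 5.51 (SD, n = 3). Scn1a was the lowest or next to the lowest in all 6 groups.

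**Figure D1:**
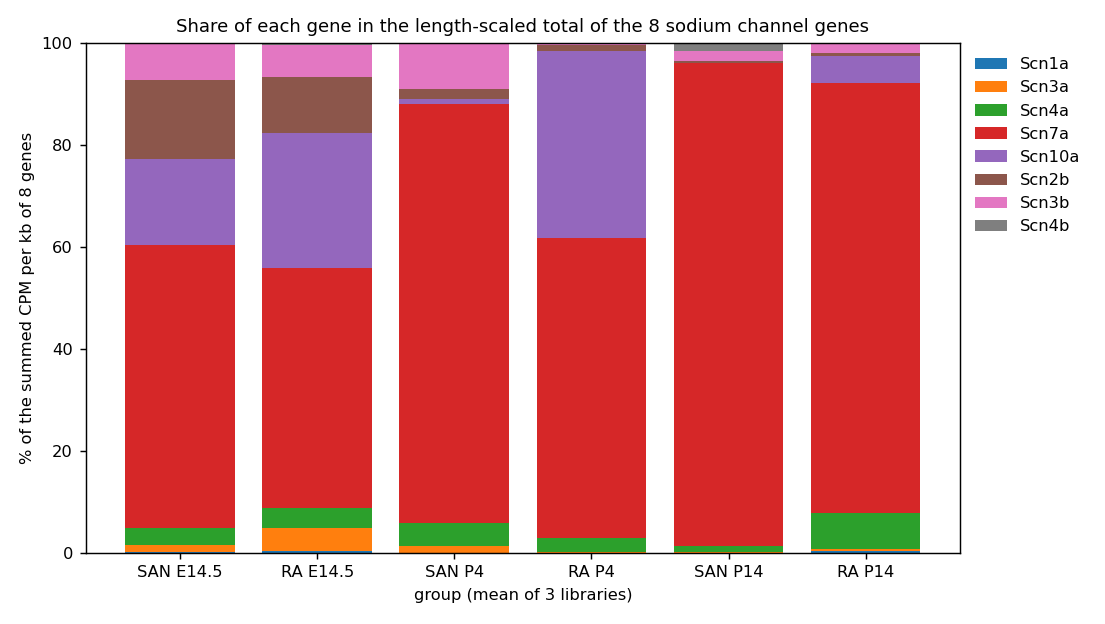
Each bar splits the summed CPM per kilobase of the 8 genes into the percent taken by each gene, from the mean of 3 libraries per group, with SAN left of RA at each stage. Scn7a takes 94.6% of the bar of SAN at P14, and Scn10a takes 36.7% of the bar of RA at P4.

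The comparison of SAN with RA asks which of these genes set the node apart from the muscle beside it. A gene was tested if it had at least 1 CPM in at least 3 libraries, which Scn1a did not, so 7 of the 8 were tested, Scn4b through SAN at P14 alone. It was called at an adjusted p under 0.05 (limma, Benjamini-Hochberg over 17568 genes). Over the mean of the 3 stages, 3 of the 7 were higher in SAN (Scn7a, Scn3b and Scn4b) and 1 was lower (Scn10a), while 6.11% of all genes tested were called higher and 5.36% lower. At E14.5 none of the 7 was called, against 5.33% of all genes. None of the 7 had an unadjusted p under 0.05 in limma either, against 16.1% of all genes, and edgeR and DESeq2 called none. At P4, Scn3b was higher, against 2.97% of all genes, and Scn10a lower, against 2.99%. At P14, Scn7a and Scn4b were higher, against 3.21% of all genes, and Scn10a lower, against 1.34%. The median difference of the 7 at P14 was 0.33 on the log2 scale, against 0.10 over all genes tested. Since Scn4b entered the test through SAN at P14 alone, its calls over the 3 stages and at P14, and its part in this median, were built in.

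**Figure D2:**
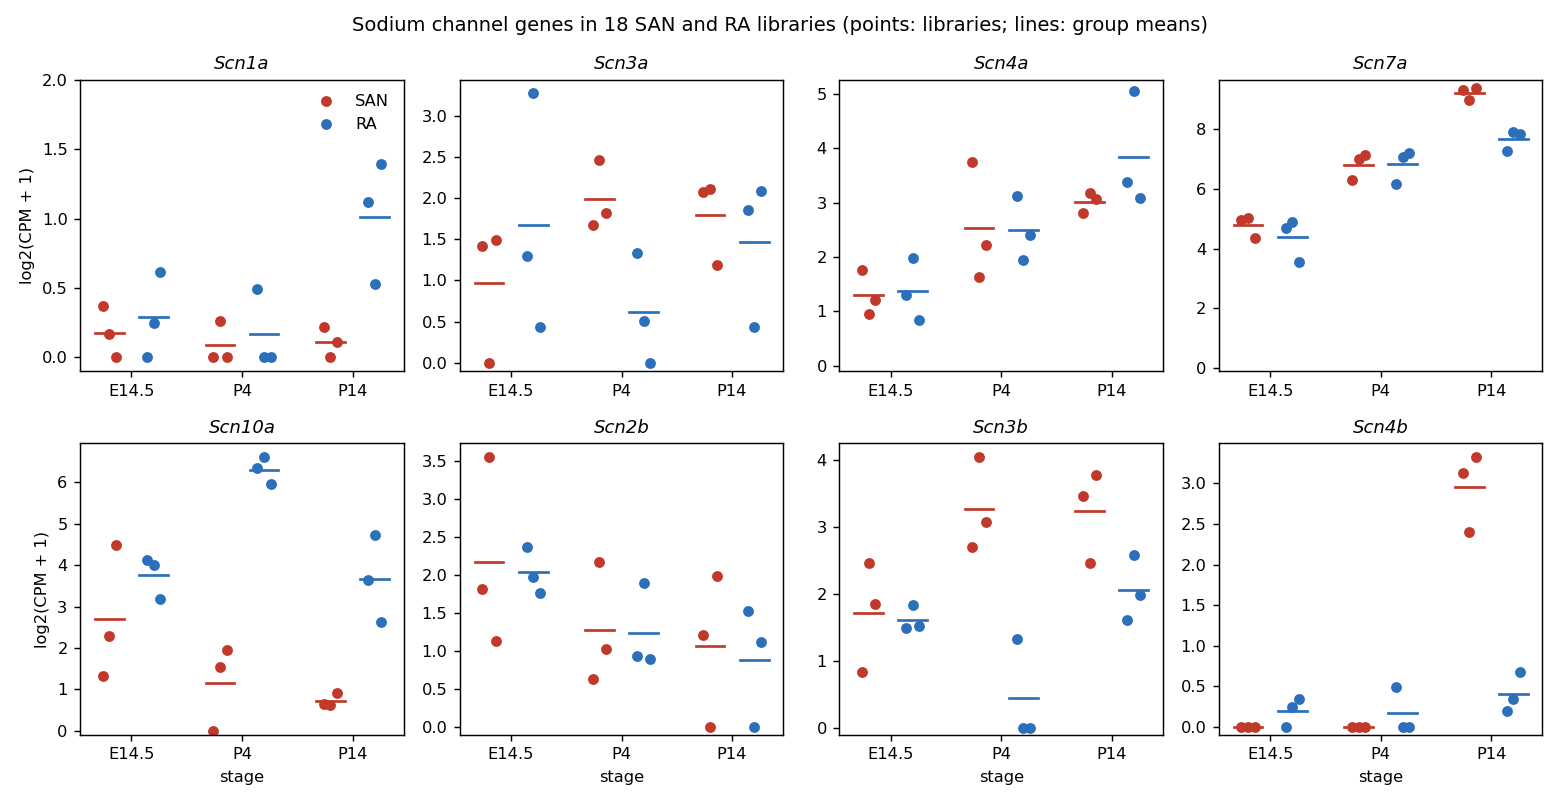
Each panel shows 1 gene in the 18 libraries, with stage on the x axis, log2(CPM + 1) on the y axis, SAN left of RA, and a line at each group mean. Scn10a is near 0 in SAN at P14 and peaks in RA at P4, Scn4b is above 4 CPM in the 3 SAN libraries at P14, and Scn7a climbs in both tissues. The y axes differ between panels.

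Scn10a codes for the tetrodotoxin-resistant pore best known from pain-sensing neurons, and human variants at its locus are associated with cardiac conduction. In SAN it had 1.52, 3.88 and 21.5 CPM at E14.5, 0, 1.90 and 2.87 CPM at P4, and 0.573, 0.533 and 0.880 CPM at P14. In RA it had 16.6, 14.9 and 8.02 CPM at E14.5, 80.0, 96.9 and 61.1 CPM at P4, and 11.4, 25.6 and 5.17 CPM at P14. SAN lay below RA in every library at P4 and at P14, while SAN E14.5 replicate 3 stood above all 3 RA libraries of its stage. Over the 3 stages Scn10a was lower in SAN by a log2 difference of -3.05 ± 0.39 (SE, n = 9 each, adjusted p = 6.96e-06). The difference was -5.14 ± 0.68 at P4 (SE, n = 3 each, adjusted p = 2.17e-05), where SAN averaged 1.59 ± 1.46 CPM and RA 79.3 ± 17.9 CPM (SD, n = 3). At P14 it was -2.94 ± 0.68 (SE, n = 3 each, adjusted p = 0.0115), a call that was lost without RA P14 replicate 2 (-2.40, adjusted p = 0.0949).

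Markers of working atrial muscle (Nppa, Gja1, Gja5 and Bmp10) were lower in SAN than in RA, as Scn10a was. Their summed level was 13.9 to 354.8 CPM in SAN and 1020 to 3353 CPM in RA, with 3 of 4 lower in SAN at E14.5, 4 of 4 at P4 and 3 of 4 at P14. The highest of the 9 SAN libraries in these markers was SAN E14.5 replicate 3, at 354.8 CPM, and it was also the highest in Scn10a. SAN E14.5 replicate 1 had more of the markers than replicate 2 (141.3 against 70.5 CPM) and less Scn10a. In SAN at P4 the libraries ranked alike in the markers and in Scn10a. In SAN at P14 the ranks were reversed, and replicate 2 was the highest in the markers (233.5 CPM) and the lowest in Scn10a. None of the 4 markers was at 0 in any SAN or RA library, and their part in the difference was not tested. Within RA their sums were 1020 to 1142 CPM at E14.5, 2170 to 2784 CPM at P4 and 2366 to 3353 CPM at P14. Between E14.5 and P4 in RA, 2 of the 4 were called higher (Gja1 and Bmp10), as Scn10a was. Between P4 and P14 in RA none of the 4 was called in either direction, and Scn10a averaged 79.3 CPM at P4 and 14.0 CPM at P14. Gja5 rose by 0.75 to P4 and then fell by 1.53 on the log2 scale, neither step called.

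Within RA, Scn10a rose between E14.5 and P4, to 79.3 ± 17.9 CPM at P4 against 13.2 ± 4.54 CPM at E14.5 (SD, n = 3), a log2 difference of 2.54 ± 0.68 (SE, adjusted p = 0.0234). It then fell by 2.64 ± 0.68 to 14.0 ± 10.5 CPM at P14 (SE for the log2 difference and SD for the level, n = 3, adjusted p = 0.0223), while the median of all genes fell by 0.24. P14 and E14.5 in RA overlapped and did not pass the test (adjusted p = 0.935). Neither call in RA was kept by edgeR (adjusted p = 0.0788 and 0.201) or by DESeq2 (adjusted p = 0.0676 and 0.194), nor with a pseudocount of 0.1 CPM, and the fall was lost with equal upper quartiles (-2.37, adjusted p = 0.0543), which moved the median of all genes to -0.02. The rise was also lost without RA E14.5 replicate 2 or 3 or RA P4 replicate 1 or 2 (adjusted p = 0.0553 to 0.116), and the fall without RA P4 replicate 1 or 2 or RA P14 replicate 1 or 3 (adjusted p = 0.0545 to 0.102). In SAN, P14 was lower than E14.5 by a log2 difference of -1.98 ± 0.68 (SE, n = 3 each, adjusted p = 0.0366). Without SAN E14.5 replicate 3 the difference was -1.08 (adjusted p = 0.259), and the call was also lost without SAN E14.5 replicate 2 or any of the 3 SAN P14 libraries (adjusted p = 0.0525 to 0.0821). Pseudocounts of 0.1 and 4 CPM (adjusted p = 0.0517 and 0.0839) and no filter (adjusted p = 0.0554) lost it too.

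Scn7a codes for Nax, a relative of the pores that is known as a sodium sensor in glia of the brain and, unlike the other pores, is not opened by voltage. In SAN it had 30.4, 31.6 and 19.6 CPM at E14.5, 77.8, 125.9 and 141 CPM at P4, and 636.1, 501.9 and 657.5 CPM at P14. In RA it had 24.6, 28.7 and 10.9 CPM at E14.5, 71.1, 134.4 and 146.3 CPM at P4, and 153.8, 240.3 and 226.4 CPM at P14. The tissues overlapped at E14.5 and P4, and at P14 all 3 SAN libraries lay above all 3 RA libraries. The difference at P14 was 1.55 ± 0.33 (SE, n = 3 each, adjusted p = 0.00606), with means of 598.5 ± 84.3 CPM in SAN and 206.8 ± 46.5 CPM in RA (SD, n = 3). The call over the mean of 3 stages (0.65 ± 0.19, SE, n = 9 each, adjusted p = 0.0272) was lost on leaving out any of 8 of the 18 libraries (adjusted p up to 0.0657): SAN E14.5 replicates 1 and 2, SAN P4 replicate 2, SAN P14 replicates 1 and 3, and 1 RA library of each stage (E14.5 replicate 3, P4 replicate 1 and P14 replicate 1).

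Scn7a rose with age in both tissues. From E14.5 to P14 the log2 difference was 4.43 ± 0.33 in SAN (SE, n = 3 each, adjusted p = 3.83e-09) and 3.29 ± 0.33 in RA (SE, n = 3 each, adjusted p = 2.98e-07). In SAN both steps passed the test, with 2.03 ± 0.33 between E14.5 and P4 (adjusted p = 0.000412) and 2.41 ± 0.33 between P4 and P14 (adjusted p = 0.000164). In RA the step to P4 passed (2.44 ± 0.33, adjusted p = 4.3e-05), and the step to P14 did not (0.85 ± 0.33, adjusted p = 0.122), though it did with equal upper quartiles (1.14, adjusted p = 0.0397) and in DESeq2 (1.14, adjusted p = 0.0103). The rise to P14 was not shown to differ between the tissues (1.14 ± 0.46, SE, adjusted p = 0.23). Markers of other cell types rose over the same span: from E14.5 to P14, 5 of 8 fibroblast genes rose in SAN and 7 of 8 in RA, with sums of 18690 to 21590 CPM at P14 against 2757 to 5354 CPM at E14.5 in SAN, and 8373 to 10570 CPM at P14 against 2300 to 2866 CPM at E14.5 in RA. In SAN, 5 of 5 macrophage and 5 of 9 glial genes rose, and in RA 2 of 5 and 2 of 9. Their part in the rise of Scn7a was not tested.

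Markers of some other cell types were also higher in SAN at P14, and those of others were lower. Of 9 glial genes tested, 4 were higher in SAN, among them Sox10, S100b and Cdh19, and the summed level of the 10 listed was 155 to 170 CPM in SAN and 49.3 to 65.9 CPM in RA. Of 8 fibroblast genes, 4 were higher in SAN, with sums of 18690 to 21590 CPM in SAN and 8373 to 10570 CPM in RA. Of 6 smooth muscle and pericyte genes, 4 were higher, with 3016 to 3693 CPM in SAN and 759 to 1152 CPM in RA. Of 5 macrophage genes, 2 were higher, with 378 to 554 CPM in SAN and 173 to 176 CPM in RA. None of the markers of the last 3 lists was at 0 at P14. Endothelial genes went the other way at P14, with 2 of 7 lower in SAN and none higher. Their sums were 1014 to 1082 CPM in SAN and 1475 to 1649 CPM in RA. Of 8 cardiomyocyte genes, 3 were lower in SAN and none higher. At P4 replicate 1 was the lowest of each tissue in Scn7a and also in the fibroblast genes. Replicate 1 had 7733 CPM of these in SAN and 7079 CPM in RA, against 15410 to 16100 CPM in the other P4 libraries. In RA at P14 replicate 1 was also the lowest in both. In SAN at P14 and in both tissues at E14.5, the library lowest in Scn7a was not the lowest in the fibroblast genes. SAN E14.5 replicate 3, the lowest of its group in Scn7a, was the highest in these genes (5354 CPM). The part of these cell types in the Scn7a values was not tested.

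Scn4a codes for the main pore of adult skeletal muscle. It rose with age in RA, with 9.35, 32.2 and 7.53 CPM at P14 against 1.47, 2.95 and 0.802 CPM at E14.5, a log2 difference of 2.46 ± 0.60 (SE, n = 3 each, adjusted p = 0.00441). RA P14 replicate 2 stood apart, and without it the difference was 1.85 (adjusted p = 0.0388). In SAN it had 5.97, 8.00 and 7.36 CPM at P14 against 2.39, 0.925 and 1.30 CPM at E14.5, a log2 difference of 1.71 ± 0.60 (SE, n = 3 each, adjusted p = 0.0398). The SAN call was lost on leaving out any of the 6 libraries it compares (adjusted p up to 0.128), with a pseudocount of 4 CPM and without the filter. SAN and RA overlapped at each stage, and no difference between them passed the test. Of 9 skeletal muscle markers tested in RA, 2 were lower at P14 than at E14.5 (Tnnt3 and Actn3) and none was higher, where 16.7% of all genes were lower. Their summed level in RA was 0.891 to 7.83 CPM at P14 and 18.6 to 20.6 CPM at E14.5.

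Scn1a and Scn3a are pores of neurons of the central nervous system. Scn1a was at 0 in 7 of the 18 libraries and failed the filter on low values. It had 0.164, 0 and 0.0801 CPM in SAN at P14, at most 2 reads per library, against 1.17, 0.445 and 1.62 CPM in RA at P14, which is 5 to 11 reads per library. The highest of the other libraries was RA E14.5 replicate 3, with 0.535 CPM. Scn3a ranged from 0 to 4.51 CPM in SAN and from 0 to 8.66 CPM in RA. At P4 the 3 SAN libraries (2.20, 4.51 and 2.52 CPM) lay above the 3 RA libraries (1.53, 0.419 and 0 CPM), but the difference did not pass the test (1.37 ± 0.64, SE, n = 3 each, adjusted p = 0.259).

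Scn3b codes for a beta subunit that binds the pore without a covalent bond. In SAN it had 0.796, 4.50 and 2.61 CPM at E14.5, 5.50, 15.5 and 7.39 CPM at P4, and 10.1, 4.53 and 12.7 CPM at P14. In RA it had 1.80, 2.58 and 1.87 CPM at E14.5, 1.53, 0 and 0 CPM at P4, and 2.04, 4.99 and 2.95 CPM at P14. Only the P4 libraries of the 2 tissues were fully apart. Scn3b was higher in SAN over the mean of 3 stages (1.37 ± 0.32, SE, n = 9 each, adjusted p = 0.00567) and at P4 (2.83 ± 0.56, SE, n = 3 each, adjusted p = 0.0021), and both calls held under all the alternatives run. At P14 the difference of 1.18 ± 0.56 did not pass (SE, n = 3 each, adjusted p = 0.303). In SAN, P14 exceeded E14.5 by 1.52 ± 0.56, just short of the threshold (SE, n = 3 each, adjusted p = 0.0506), and it passed in 3 of 8 alternatives and on leaving out any of 7 of the 18 libraries. Of 7 autonomic neuron markers tested, 2 were higher in SAN at P4 (Th and Uchl1), and the median difference of the 7 was 0.06 on the log2 scale. The summed level of the 9 listed at P4 was 105 to 306 CPM in SAN and 22.6 to 30.6 CPM in RA, while Dbh averaged 14.8 CPM in SAN and 16.6 CPM in RA and Elavl4 0.878 CPM in SAN and 5.01 CPM in RA, neither called. Phox2a, which helps define such neurons, was at 0 in 2 of the SAN and all 3 RA libraries of that stage. The sums were also apart at E14.5, where Scn3b overlapped, with 130.4 to 242.1 CPM in SAN and 16.8 to 19.4 CPM in RA. At P14 they were 49.0 to 51.45 CPM in SAN and 23.8 to 33.15 CPM in RA. The part of these markers in the Scn3b difference was not tested.

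Scn4b codes for a beta subunit joined to the pore by a disulfide bond. It had no read in any of the 6 SAN libraries at E14.5 and P4, which allows up to 0.301 CPM in a library. At P14 the 3 SAN libraries had 7.77, 4.26 and 9.04 CPM, which is 32 to 113 reads each, against 0.146, 0.268 and 0.591 CPM in the RA libraries, which is 1 to 4 reads each. SAN at P14, with a mean of 7.03 ± 2.48 CPM (SD, n = 3), was thus at least 23.35-fold higher than the 3 reads per library that a count of 0 allows in SAN at E14.5 and P4. RA stayed at or below 0.591 CPM at all stages, and its libraries at E14.5 and P4 had at most 4 reads.

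Scn4b was called higher in SAN at P14 (2.55 ± 0.36, SE, n = 3 each, adjusted p = 8.09e-05) and higher at P14 than at P4 and E14.5 within SAN (2.95 ± 0.36, SE, n = 3 each, adjusted p = 3.26e-05 and 3.61e-06). It was the single member whose change from E14.5 to P14 was called as different between SAN and RA (2.74 ± 0.505, SE, adjusted p = 0.00506), against 1.64% of all genes with a larger change in SAN and 0.632% with a smaller one. edgeR did not make that last call (adjusted p = 0.0992). Scn4b passed the filter through the 3 SAN libraries at P14 alone, so a difference there was built into its being tested, and leaving out any of them removed it from the test. With the genes tested on 18 libraries kept, a choice made after seeing the data, the difference from RA at P14 was 2.36 to 2.83 without each of the 3, which is no independent check since those libraries decided the filter. At P14 the difference from RA was larger in edgeR and DESeq2 but not called (adjusted p = 0.136 and 0.0539). The call over the mean of 3 stages (0.73 ± 0.21, SE, n = 9 each, adjusted p = 0.0219) rested on P14, since SAN had no read at the other stages. It was lost with a pseudocount of 0.1 CPM (adjusted p = 0.483) and without RA E14.5 replicate 1 or RA P14 replicate 1 (adjusted p = 0.0555 and 0.0508), and its sign was negative in edgeR and DESeq2. The glial, fibroblast, smooth muscle and macrophage sums given beside Scn7a at P14 separate the same libraries, as do the endothelial sums, which are lower in SAN. The part of these cell types was not tested.

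Scn2b codes for another disulfide-linked beta subunit, and its gene neighbours Scn4b. It did not share the pattern of Scn4b: it ranged from 0 to 10.8 CPM in SAN and from 0 to 4.17 CPM in RA, and no comparison called it. In SAN it had 2.53, 10.8 and 1.20 CPM at E14.5 and 1.31, 0 and 2.96 CPM at P14.

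**Figure D3:**
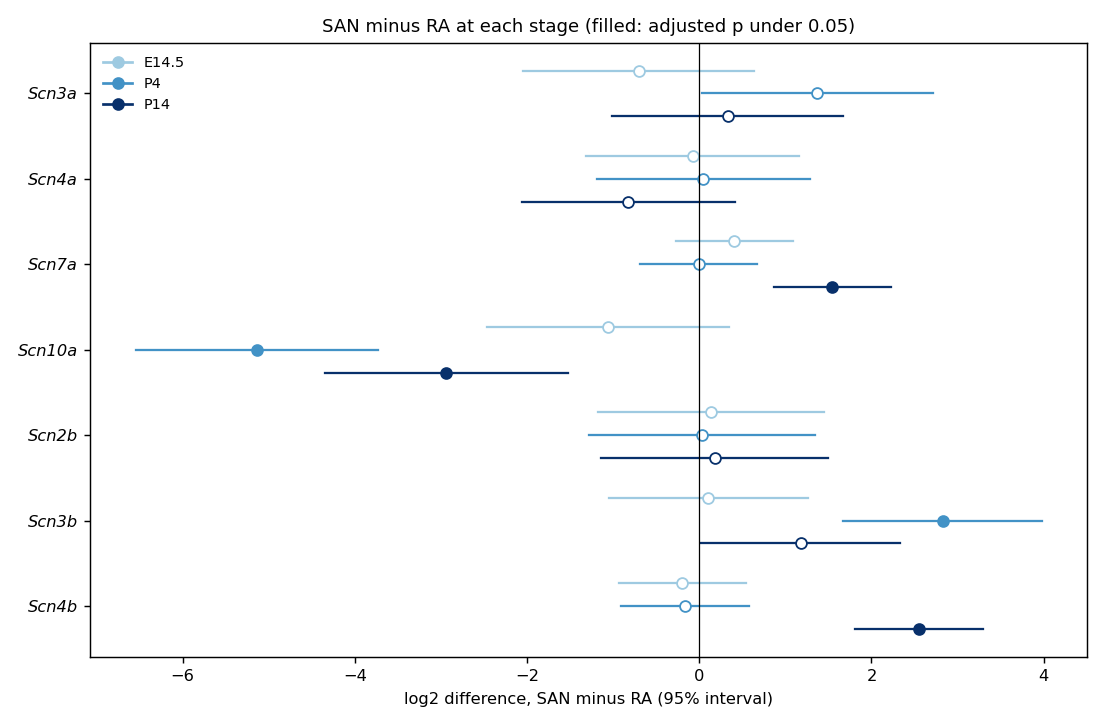
Log2 differences, SAN minus RA, with 95% intervals for the 7 genes tested at E14.5, P4 and P14, filled where the adjusted p was under 0.05. Scn10a lies left of 0 at P4 and P14, Scn3b right of 0 at P4, and Scn7a and Scn4b right of 0 at P14. Scn4b entered the test through the SAN libraries at P14 alone.

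With age, 3 of the 7 were higher at P14 than at E14.5 in SAN (Scn4a, Scn7a and Scn4b), against 9.74% of all genes, and 1 was lower (Scn10a), against 14.5%. Scn4b entered the test through SAN at P14 alone, so its rises to P14 in SAN, counted here and below, were built in. In RA, 2 were higher at P14 than at E14.5 (Scn4a and Scn7a), against 5.99% of all genes, and none was lower, against 16.7%. Between E14.5 and P4 in SAN, 1 rose (Scn7a), against 3.85% of all genes, and none fell, against 4.39%. Over the same step in RA, 2 rose (Scn7a and Scn10a), against 3.23% of all genes, and none fell, against 3.56%. Between P4 and P14 in SAN, 2 rose (Scn7a and Scn4b), against 2.68% of all genes, and none fell, against 2.91%. Over that step in RA, none rose, against 1.34% of all genes, and 1 fell (Scn10a), against 5.42%. The median over the 7 for P14 minus E14.5 was 1.52 in SAN and 0.21 in RA on the log2 scale, while that of all genes tested was -0.18 in SAN and -0.37 in RA.

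**Figure D4:**
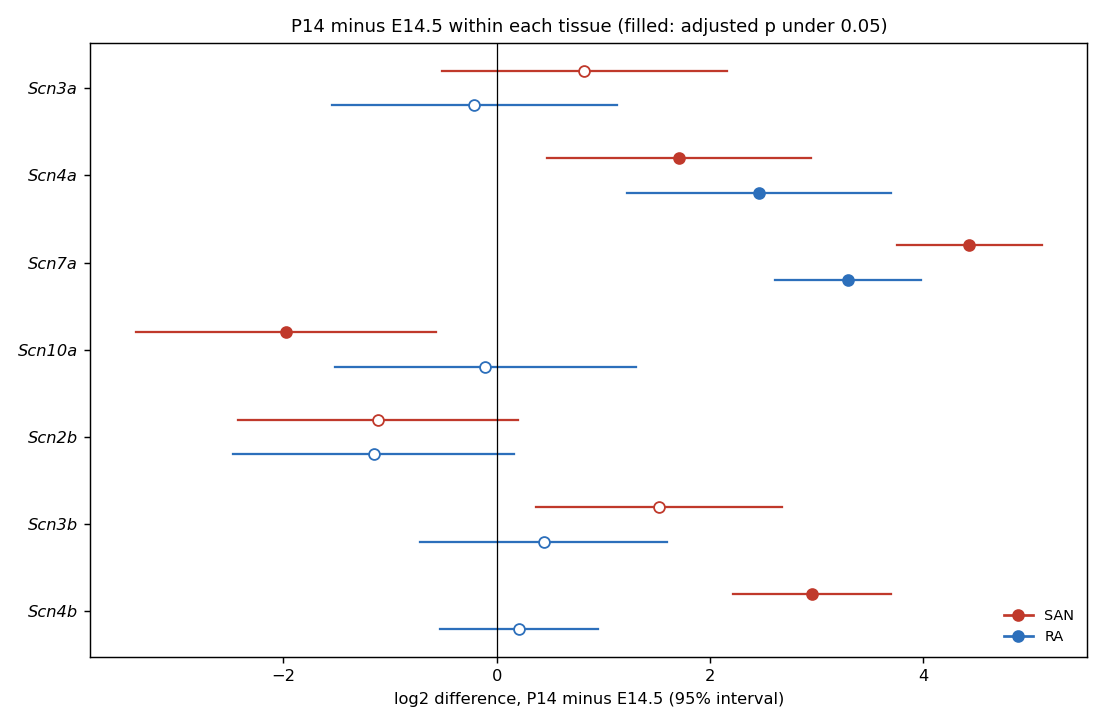
Log2 differences, P14 minus E14.5, with 95% intervals for the 7 genes tested, SAN above RA, filled where the adjusted p was under 0.05. Scn4a and Scn7a lie right of 0 in both tissues, and Scn4b lies right of 0 in SAN, the tissue through whose P14 libraries it entered the test.

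The deletion of Isl1, a homeobox factor of the node, was compared in the E12.5 SAN libraries. Isl1 itself had 71.7 and 53.9 CPM in the libraries labelled CrePos 1 and 3, inside the range of 67.4, 88.5, 47.8 and 83.2 CPM in the CreNeg libraries, so the targeted gene did not separate these groups when all its reads were counted. Values are per gene and the labels do not say which part is deleted, so these levels may check nothing. The library labelled CrePos 2, marked as an outlier in its title and left out of the test, had 2.85 CPM of Isl1 and 1032 CPM of Myl2. Hcn4 was lower, with 107.7 and 81.2 CPM in the libraries labelled CrePos 1 and 3 against 214 to 246.6 CPM in the CreNeg libraries.

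None of the 6 sodium channel genes tested was called between libraries labelled CrePos and CreNeg libraries (limma), against 2% of all 14595 genes. At an unadjusted p under 0.05 there were 2, Scn10a and Scn3b, against 20.2% of all genes. edgeR called none, and DESeq2 called 1, Scn3b. Scn10a had 5.43 and 4.03 CPM in the libraries labelled CrePos 1 and 3 against 0.246, 1.47, 0.353 and 2.09 CPM in the CreNeg libraries, a log2 difference of 1.59 ± 0.52 (SE, n = 2 and 4, adjusted p = 0.13). Scn3b had 0.245 and 0.0329 CPM in the libraries labelled CrePos 1 and 3 against 1.79, 0.484, 6.45 and 1.46 CPM in the CreNeg libraries, a log2 difference of -1.38 ± 0.59 (SE, n = 2 and 4, adjusted p = 0.215 in limma and 0.0254 in DESeq2). The compared groups did not overlap in these 2 genes, which were picked by their unadjusted p. With 2 and 4 libraries this can arise by chance, and the share of all genes without overlap was not counted. CrePos 2, with 0.733 CPM of Scn10a and 2.38 CPM of Scn3b, lay within the CreNeg range.

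Of the working atrial markers, 2 of 3 tested were called higher. Their sums were 237.6 and 334.8 CPM in the libraries labelled CrePos 1 and 3 against 16.3 to 79.4 CPM in the CreNeg libraries, where Bmp10 was at 0. CrePos 2, left out of the test, had 303.9 CPM of these markers, and its Scn10a lay within the CreNeg range. Of the autonomic neuron markers, 1 of 5 tested was called lower. Their sums were 39.0 and 30.9 CPM in the libraries labelled CrePos 1 and 3 against 89.5 to 160.8 CPM in the CreNeg libraries. CrePos 2 had 36.4 CPM of these, and its Scn3b lay within the CreNeg range. The part of these markers in Scn10a and Scn3b was not tested. Scn7a, the main member at later stages, had 3.82 and 2.93 CPM in the libraries labelled CrePos 1 and 3 and 0.702 to 8.32 CPM in the CreNeg libraries. Scn4a had 1.23 and 0.699 CPM in the libraries labelled CrePos 1 and 3 and 0.0329 to 1.98 CPM in the CreNeg libraries, which overlapped. Scn1a and Scn4b failed the filter on low values, and Scn4b had at most 9 reads in each of these 6 libraries. CreNeg replicate 1 had the highest Scn1a (3.68 CPM), Scn3a (4.29 CPM) and Scn2b (9.22 CPM) of the 7 libraries.

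**Figure D5:**
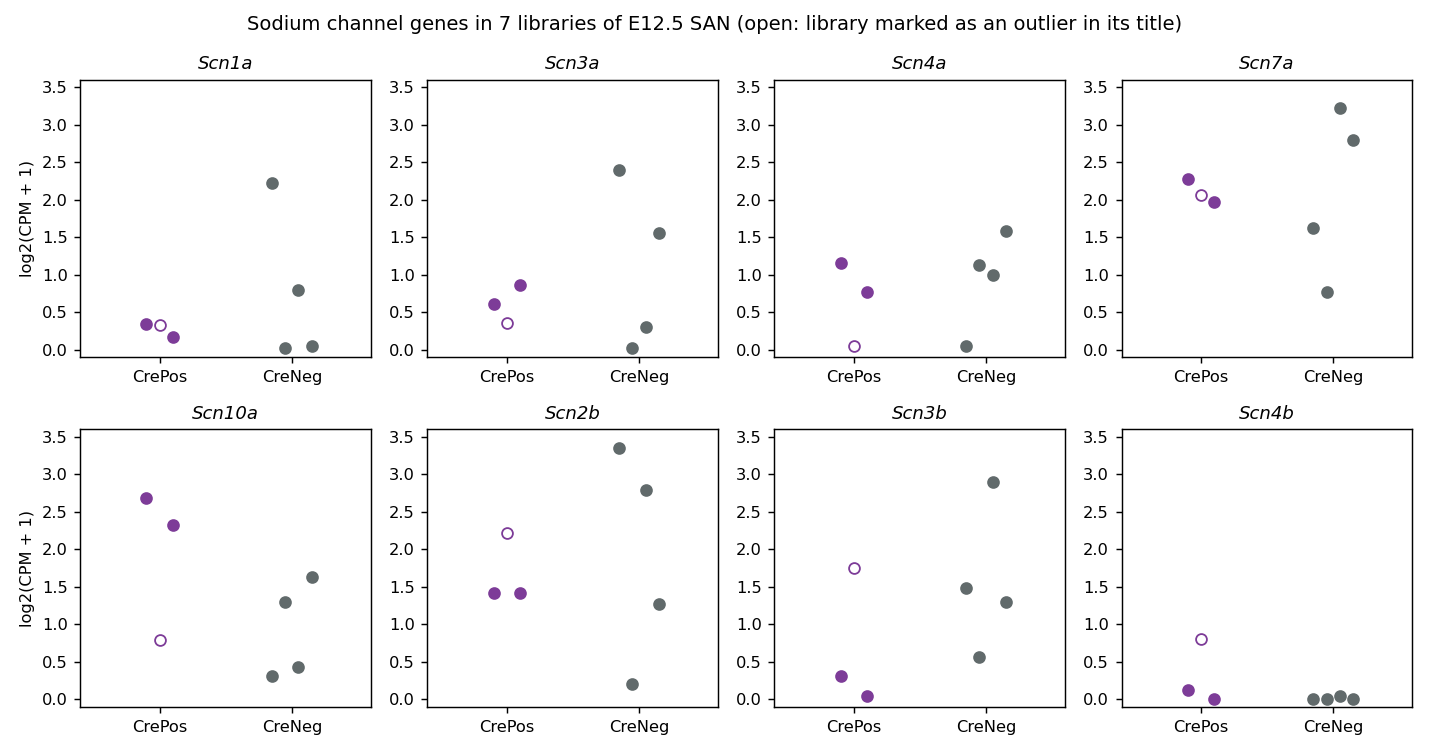
Each panel shows 1 gene in the 7 libraries of E12.5 SAN as log2(CPM + 1), CrePos left of CreNeg, with the library marked as an outlier drawn open. In Scn10a both filled CrePos points lie above the CreNeg points, and in Scn3b both lie below them, though limma called neither gene.

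A list of 32 partners of the channels and further sodium channel genes gave the surroundings of the members, with 30 listed in the table and 28 tested. Between SAN and RA over the mean of 3 stages, 2 were higher in SAN (6.11% of all genes were) and 6 lower (5.36% of all genes), with a median of -0.12 on the log2 scale against -0.01 over all genes. Fgf12, a fibroblast growth factor homologous factor that binds the tail of the pore and shifts its inactivation, was lower in SAN (log2 difference -3.66 ± 0.29, SE, n = 9 each, adjusted p = 4.99e-09), and so was its relative Fgf13 (-1.07 ± 0.18, SE, adjusted p = 0.000166). Fgf12 averaged 5.55 ± 7.14 CPM in SAN and 234.2 ± 53.6 CPM in RA at P4 (SD, n = 3). Ank2, an ankyrin that anchors channels to the membrane skeleton (-0.76), Sntb2, a syntrophin (-0.76), and Nedd4l, a ubiquitin ligase that acts on sodium channels (-0.61), were also lower in SAN. The 2 that were higher in SAN were the axonal adhesion genes Nfasc (3.93 ± 0.36, SE, adjusted p = 4.29e-08) and Cntn2 (2.82 ± 0.40, SE, adjusted p = 2.77e-05).

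At P14 the list had 3 of 28 higher in SAN, against 3.21% of all genes, and 4 lower, against 1.34%. The third of the higher ones was Nalcn, a sodium leak channel that is not opened by voltage, with 3.07 ± 1.40 CPM in SAN and 0.324 ± 0.360 CPM in RA (SD, n = 3, adjusted p = 0.0209). From E14.5 to P14 in SAN, 9 of 28 rose, against 9.74% of all genes, and 3 fell, against 14.5%. In RA, 7 rose, against 5.99% of all genes, and 1 fell, against 16.7%. Fgf13 fell by 3.07 ± 0.30 in SAN (SE, n = 3 each, adjusted p = 2.39e-07), and its change differed between SAN and RA (-2.61 ± 0.43, SE, adjusted p = 0.0019). In the E12.5 set, 1 of 22 tested was called higher and 1 lower, where 2% of all genes were called in either direction. The lower one was Fgf13, with 7.90 ± 0.685 CPM in the libraries labelled CrePos 1 and 3 and 27.7 ± 3.46 CPM in the CreNeg libraries (SD, n = 2 and 4, adjusted p = 0.00959).

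The genes most like each member were those with the highest Pearson r of log2(CPM + 1) over the 18 libraries, which share their depth and tissue makeup, so r is given as a description. Scn7a was most like Sod3, an extracellular superoxide dismutase (r = 0.951), Cd34, a surface protein of endothelial and stromal cells (r = 0.948), and Plac9 (r = 0.945). Scn10a was most like Arhgap31 (r = 0.905), Pgm5 (r = 0.888) and Sept3 (r = 0.878). Scn4a was most like Kif1c, a kinesin motor (r = 0.945), Idh3a, a subunit of a citric acid cycle enzyme (r = 0.888), and Stat5a, a transcription factor (r = 0.870). Scn3b was most like Tuba8, an alpha tubulin (r = 0.856), Gpr56, an adhesion receptor (r = 0.842), and Alpl, an alkaline phosphatase (r = 0.812). Scn4b was most like Sox2ot, a transcript that overlaps Sox2 (r = 0.949), Cpxm2, of the carboxypeptidase family (r = 0.928), and Hmcn2, a hemicentin of the extracellular matrix (r = 0.925). Scn4b, and Sox2ot too, passed the filter through the 3 SAN libraries at P14 alone. A high r of Scn4b with genes high in those libraries, Scn7a among them, was thus partly built in. Hmcn2 shared the step at P14, with 91.5, 141.9 and 63.8 CPM in the 3 SAN libraries and no read in the 3 RA libraries of that stage. Among the members themselves, r was highest for Scn7a with Scn4b (0.70) and for Scn4a with Scn7a (0.67), and lowest for Scn4a with Scn2b (-0.72) and for Scn10a with Scn3b (-0.71).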

How the data were processed

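Tissue was collected by laser capture, and RNA was amplified before library construction, per the labels' protocols, which name no step that marks strand. The submitters' processing notes name TopHat2 2.0.6, edgeR and the build mm8. The deposited values are a signal per gene scaled by the authors. In every library 100% of values fell on whole reads, with a tolerance of 0.1 read, so the counts behind them could be recovered. The deposited signal was divided by one constant, 24.3, to give CPM, with library totals averaging 1000000. Amplified reads are not independent molecules, so floors cover counting error only.

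limma 3.58.1 (R 4.3.3) was fitted to log2(CPM + 1) with a mean-variance trend, over 18 libraries with 6 group means and over 6 libraries of the E12.5 set (genes with at least 1 CPM in 2 libraries). Log2 differences are on that scale, which understates the change of low genes. The fit was tested on simulated data. Members and lists were chosen with earlier results of these data known. All members are named, listed partners where called, and per member with a group mean of at least 5 CPM the 3 most correlated genes. Further sodium channel genes and some marker genes are counted in the lists but not reported here. Same-numbered SAN and RA libraries were not closer than others (3 of 9 pairs best matched their own number), so numbers were not used as pairs. Exon lengths are from GENCODE vM21 and promoters from RefSeq GRCm38.p6. Alternatives were edgeR 4.0.16 and DESeq2 1.42.0 on the recovered reads, other pseudocounts (0.1 and 4 CPM), no filter, other scalings, a replicate block and each library left out.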

Additional observations from a re-analysis of the deposited data

Results flagged for a closer look

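Scn4b changed between E14.5 and P14 by 2.74 more in SAN than in RA on the log2 scale, by a test of the difference itself (limma, adjusted p = 0.00506). Scn4b entered that test through SAN at P14 alone, so a difference was built in, and edgeR did not call it (7.86, adjusted p = 0.0992). SAN at P14 had 7.77, 4.26 and 9.04 CPM, and no other SAN or RA library exceeded 0.591 CPM.

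In the library labelled CrePos 2, which no comparison used, Scn4b had 0.754 CPM (74 reads), above every CreNeg library. The same library held 1032 CPM of Myl2 and 1929 CPM of the ventricular markers in sum, against 104 to 131.7 CPM of these markers in the CreNeg libraries.

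Among the CreNeg libraries, replicate 3 stood apart in Scn4b with 0.0353 CPM while the other 3 were at 0. This is 2 reads, within what a count of 0 allows. With the other 3 at 0, any read in replicate 3 would have been flagged this way, so the flag carries no weight.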

How the results depend on the processing

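Depth limits Scn1a, Scn4b outside SAN at P14 and Scn10a in SAN at P4 and P14, which rest on few reads. The number of the 7 members called changed by over 1.5 times in these cases. For P4 against E14.5 in SAN, DESeq2 called 2 (1 in limma). For P14 against E14.5 in SAN, 2 were called without the filter (4 with it). For P4 against E14.5 in RA, 1 was called with a pseudocount of 0.1 CPM, in edgeR and in DESeq2 (2 in limma). For P14 against P4 in RA, edgeR called 0 and DESeq2 2 (1 in limma). For the tissue difference in change with age, edgeR called 0 (1 in limma). Between libraries labelled CrePos and CreNeg libraries, DESeq2 called 1 and the fit with a replicate block 1, which was Scn10a (2.13, adjusted p = 0.0409), against 0 in limma. The block left the direction of all other member differences given here as it was, and with it the mean Scn4b difference between SAN and RA missed the threshold (0.73, adjusted p = 0.0524). That difference reversed in edgeR (-0.98, adjusted p = 0.328) and DESeq2 (-0.70, adjusted p = 0.773); the cause was not tested.

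Leaving out 1 library at a time, 2 to 4 members were called for SAN against RA over 3 stages, 2 to 3 at P14, 2 at P4 and 0 at E14.5. With age, 1 to 5 were called for P14 against E14.5 in SAN, 1 to 2 for P14 against P4 in SAN, 1 for P4 against E14.5 in SAN, 1 to 2 for P4 against E14.5 in RA, 0 to 1 for P14 against P4 in RA and 2 for P14 against E14.5 in RA. The range was 0 to 1 for the tissue difference in change with age and 0 in the E12.5 set. Fewer members were tested without a SAN P14 library, since Scn4b then failed the filter.

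Over all genes, 2016 were called for SAN against RA over 3 stages, and 1809 in edgeR and 2322 in DESeq2. The count ranged over the alternatives without a left-out library from 525 to 1714 for SAN against RA at P14 (799 in limma), from 541 to 3521 for P14 against P4 in RA (1188), from 2715 to 6687 for P14 against E14.5 in RA (3988), from 227 to 1192 for the tissue difference (399) and from 39 to 980 in the E12.5 set (292). The share of higher calls moved by over 10 percentage points in 5 of 12 comparisons with equal upper quartiles and in 7 with equal cardiomyocyte marker levels. Once upper quartiles were equal, the split (higher to lower) became 322 to 263 in place of 236 to 952 for P14 against P4 in RA, and 154 to 61 in place of 99 to 193 in the E12.5 set. Equal upper quartiles moved the median of all genes for P14 against P4 in RA to -0.02, against -0.24 in the deposited scaling.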
